A study of Homo sapiens with 8 samples.

Results

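The genes of class I antigen presentation described here are 10 in number: the immunoproteasome subunits PSMB8, PSMB9 and PSMB10, the peptide transporter genes TAP1 and TAP2, the tapasin gene TAPBP, the aminopeptidase gene ERAP1, the light chain gene B2M, the non-classical heavy chain gene HLA-E and the transactivator gene NLRC5. Their probe sets were those that the array's annotation assigns to exactly 1 symbol, equal to one of these names, which gave 23 of the 54613 probe sets on the array. Each gene is reported by the probe set that was brightest on average, with its other probe sets beside it. All 10 genes had a probe set that was tested, and 17 of the 23 probe sets were.

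The arrays held RNA from HCT116, an established human colorectal carcinoma line, harvested 10 h after treatment. The 4 groups were vehicle, largazole at 20 nM, FK228 at 20 nM and SAHA at 2 µM, with 2 Affymetrix U133 2.0 arrays in each. All 3 compounds inhibit histone deacetylases. Largazole is a cyclic depsipeptide with its thiol masked as a thioester, FK228 is a bicyclic depsipeptide with its thiol masked as a disulfide, and SAHA is a hydroxamic acid. The submitters describe the work as done in duplicate without naming separate cultures, so the p-values reflect no more than the spread between these arrays, which may be technical. Every result refers to 1 cell line at 1 time and 1 dose of each compound. The 3 comparisons with vehicle share the same 2 vehicle arrays.

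As background, class I molecules show peptides from inside the cell to CD8+ T cells. The proteasome cuts proteins into peptides, and interferon gamma replaces its 3 constitutive catalytic subunits with PSMB8, PSMB9 and PSMB10, which form the immunoproteasome. The TAP1 and TAP2 proteins form the transporter that carries peptides into the endoplasmic reticulum, tapasin bridges it to the empty class I molecule, and ERAP1 trims the peptides there. B2M is the light chain of all class I molecules, HLA-E presents leader peptides of other class I chains to NKG2 receptors of NK cells, and NLRC5 is the transactivator of class I genes. Tumour cells often hold this pathway at a low level and so escape T cells.

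The markers of the label were measured at uneven levels. All 10 colorectal epithelial markers passed the filter on low values, with array means between 8.98 and 9.24 (log2). EPCAM, KRT8, KRT18 and KRT19 lay between 11.91 and 12.95, while CDX1, CDX2 and CEACAM5 lay between 4.78 and 6.02. Leukocytes use the immunoproteasome without stimulation, and 3 of their 13 measured markers (CD79A, ITGAM and AIF1) passed. These 3 lay between 5.01 and 5.64, within the range of CDX1, CDX2 and CEACAM5. The mean of the 13 lay between 4.05 and 4.19 on the 8 arrays, below the median of all values (4.49), and the pan-leukocyte gene PTPRC lay between 2.40 and 2.90. Of 8 fibroblast and endothelial markers 4 passed, with array means of all 8 between 4.26 and 4.45, the highest gene being COL1A1, at up to 8.56. Some of these markers moved with treatment: COL1A1 rose by 1.27 with largazole, 0.73 with SAHA and 0.60 with FK228, CDH1 rose by 0.74, 0.78 and 0.69, and CLDN4 (-0.64, -0.80 and -1.66) and ELF3 (-0.34, -0.55 and -0.80) fell. With largazole and SAHA, CDX2 fell (-0.82 and -0.90) and KRT19 rose (0.37 and 0.47). The mean of EPCAM was 12.58 with vehicle, 12.42 with largazole, 12.34 with SAHA and 12.12 with FK228. The part of these markers in the results was not tested.

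The genes of the pathway did not move as a block. On their reported probe sets PSMB9 and HLA-E rose with all 3 compounds, and TAP1 and TAPBP fell with all 3. The reported HLA-E probe set may also bind other transcripts, and the one without the ending _x_at, 200904_at, was called with largazole alone. TAP2 fell with largazole and FK228 on its reported probe set. Its second one, 225973_at, fell with all 3 compounds, with SAHA by -0.68 (adjusted p = 0.000525, limma). PSMB10 and NLRC5 fell with SAHA, NLRC5 to a mean under the filter value. PSMB8 was called higher with FK228, but only its FK228 arrays reached the filter value, so that call lends no support to a difference. No call was made for B2M or for the reported probe set of ERAP1. Calls are those of limma at a Benjamini-Hochberg adjusted p under 0.05. With largazole 5 of the 10 genes were called, 2 higher and 3 lower, against 45.2% of all 13381 tested genes (21.9% higher and 23.2% lower). With SAHA 6 were called, 2 higher and 4 lower, against 47.4% of all genes (22.1% higher and 25.2% lower). With FK228 6 were called, 3 higher (PSMB8 among them) and 3 lower, against 52.8% of all genes (25.7% higher and 27.1% lower). These shares are near those of the whole array, so the number of calls does not set the pathway apart. The median log2 change of the 10 genes was -0.21 with largazole, -0.21 with SAHA and 0.032 with FK228, beside 0.0016, -0.019 and 0.013 over all genes.

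On all 6 treated arrays the reported probe sets of PSMB9, HLA-E and B2M lay above both vehicle arrays, as did 27.2% of all genes. TAP1, TAP2, TAPBP and NLRC5 lay below both vehicle arrays on all 6, as did 29.8% of all genes. The median half-width of the 95% confidence intervals of the members' changes was 0.27 on the log2 scale. Levels of different probe sets are not comparable with each other, and in bulk RNA fewer cells with a transcript cannot be told apart from less transcript per cell.

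**Figure D1:**
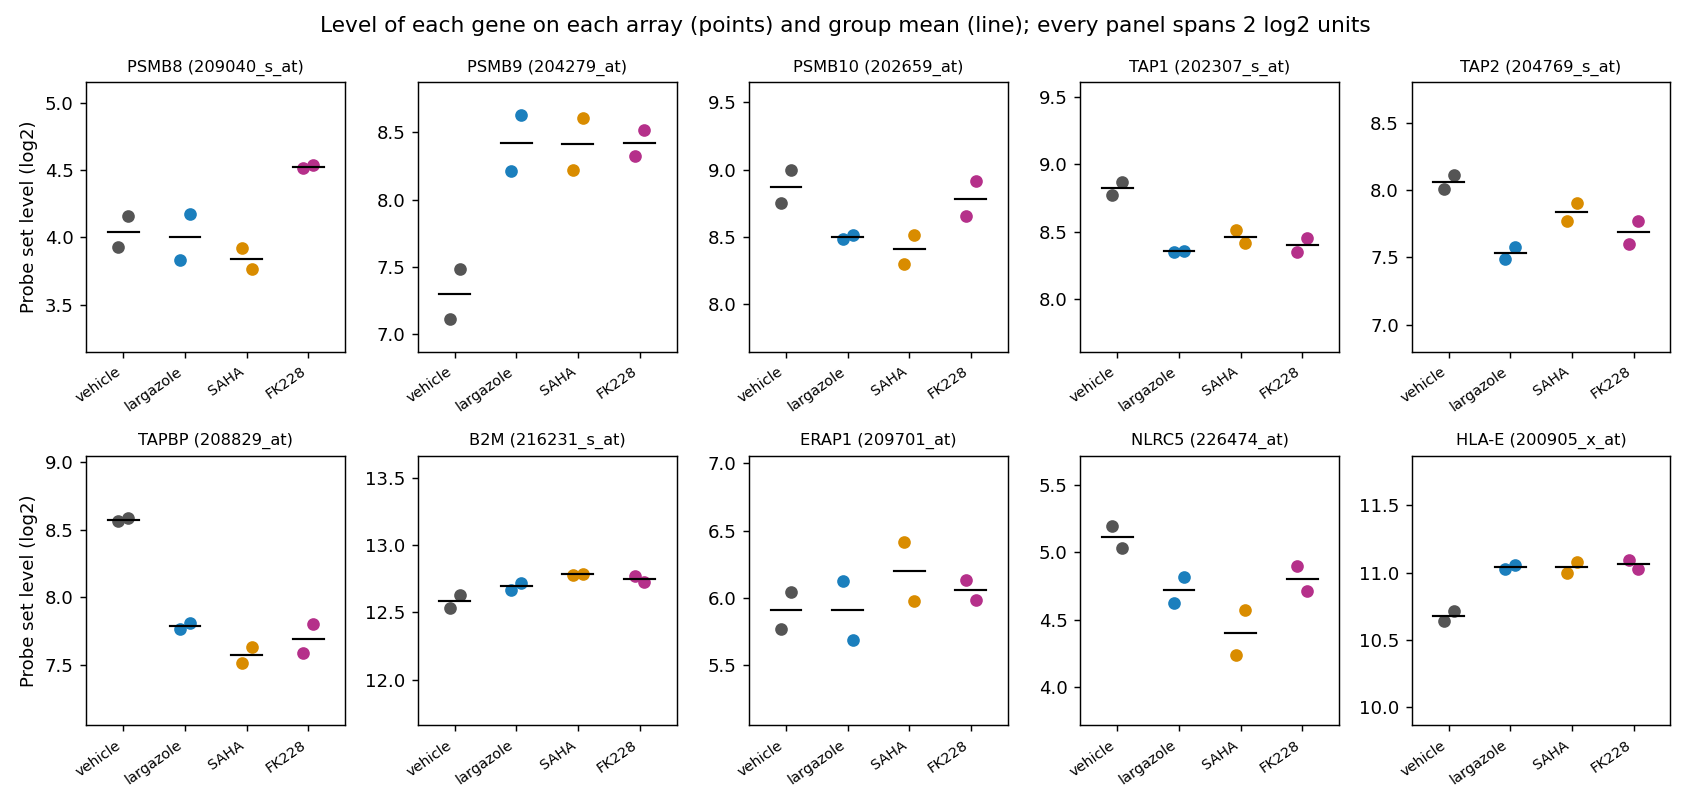
Probe set level (log2) of each of the 10 genes on each array, by group; points are arrays, lines are group means of 2 arrays, and every panel spans the same width in log2 units on its own range. PSMB9 stood between 8.21 and 8.63 on the 6 treated arrays and at 7.11 and 7.48 with vehicle, while TAPBP stood at 8.56 and 8.59 with vehicle and between 7.51 and 7.81 with the compounds.

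**Figure D2:**
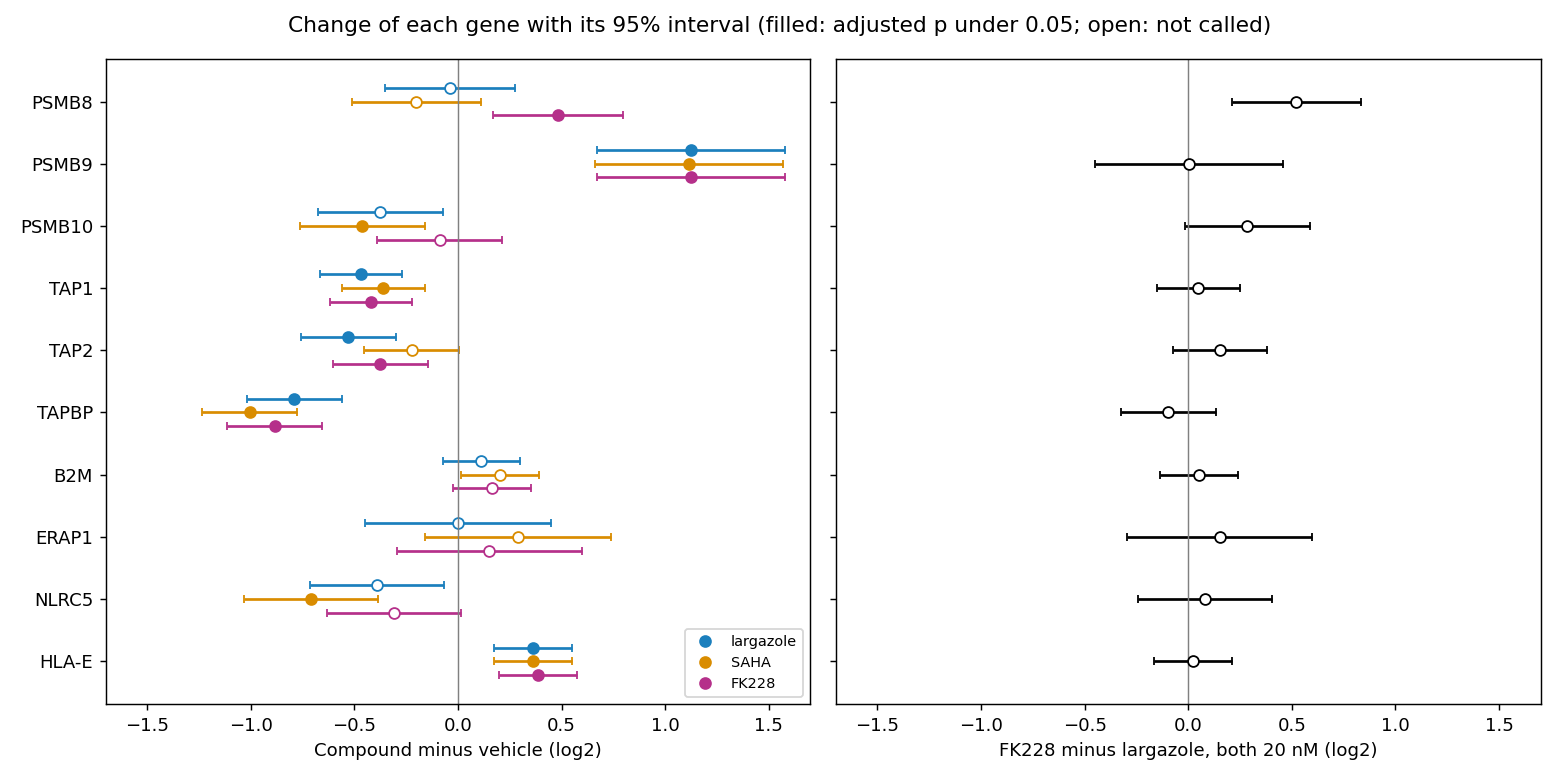
Log2 change of each gene with its 95% confidence interval, against vehicle on the left (3 compounds) and for FK228 minus largazole, both at 20 nM, on the right; filled points have an adjusted p under 0.05 in limma and open points do not. PSMB9 lies near 1.12 with each compound, and no point on the right is filled.

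PSMB9 and TAP1 lie head to head in the class II region of the major histocompatibility complex and are transcribed away from each other. In RefSeq's promoter table (build GRCh38.p14) the PSMB9 start and the nearer of the 2 TAP1 starts are 488 bases apart, so the bases upstream of the one run into those upstream of the other. Both upstream stretches of 250 bases are shown because the genes moved in opposite directions. The PSMB9 stretch is chr6:32853942-32854191 on the plus strand and the TAP1 stretch is chr6:32853705-32853954 on the minus strand, and they share 13 bases. Capitals mark matches, on either strand, to the interferon-stimulated response element (GAAA, any 2 bases, GAAA), the NF-kB site (GGGA, any 2 bases, TTCC) and the GC box (GGGCGG).
PSMB9: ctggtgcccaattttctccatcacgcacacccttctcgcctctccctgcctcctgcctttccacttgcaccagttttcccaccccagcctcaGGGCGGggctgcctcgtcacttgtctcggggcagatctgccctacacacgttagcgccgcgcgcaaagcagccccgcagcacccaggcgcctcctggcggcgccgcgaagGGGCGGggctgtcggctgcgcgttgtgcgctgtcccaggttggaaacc
TAP1: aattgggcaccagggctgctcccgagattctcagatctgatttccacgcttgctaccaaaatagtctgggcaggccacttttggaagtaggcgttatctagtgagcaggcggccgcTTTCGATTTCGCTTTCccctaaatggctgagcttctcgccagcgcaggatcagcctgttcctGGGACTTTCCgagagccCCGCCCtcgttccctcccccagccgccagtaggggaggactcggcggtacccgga

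In the TAP1 stretch, 2 overlapping matches to the interferon element covered bases -134 to -125 and -128 to -119, counted from the TAP1 start, and the NF-kB match covered -72 to -63. Seen from PSMB9 the same matches lay 354 to 369 and 416 to 425 bases upstream of its start, outside the PSMB9 stretch. Over the 35116 promoter windows of the table, 300 bases long with 250 before and 50 after the start, 3.57% held the interferon element, 1.61% the NF-kB letters and 45% the GC box on either strand. A match describes the letters and shows no binding.

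PSMB9 encodes the inducible subunit that replaces PSMB6. Its probe set 204279_at, the only one for the gene, read 7.11 and 7.48 with vehicle, 8.21 and 8.63 with largazole, 8.22 and 8.61 with SAHA, and 8.32 and 8.52 with FK228 (log2). All 6 treated arrays were above both vehicle arrays, and the 3 compound groups overlapped each other. The rise was 1.12 ± 0.195 (log2, SE) with largazole (2.18-fold, adjusted p = 0.0027, limma). It was 1.12 ± 0.195 with SAHA (2.17-fold, adjusted p = 0.00251, limma) and 1.12 ± 0.195 with FK228 (2.18-fold, adjusted p = 0.00199, limma). This was the widest change among the 10 genes, and the call held in each comparison with vehicle under every alternative tried.

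TAP1, the first chain of the transporter, has 1 probe set, 202307_s_at. It read 8.78 and 8.87 with vehicle, 8.35 and 8.36 with largazole, 8.51 and 8.42 with SAHA, and 8.35 and 8.45 with FK228. All treated arrays were below both vehicle arrays. The fall was -0.47 ± 0.0858 with largazole (1.38-fold, adjusted p = 0.00346), -0.36 ± 0.0858 with SAHA (1.28-fold, adjusted p = 0.0108) and -0.42 ± 0.0858 with FK228 (1.34-fold, adjusted p = 0.00449, limma). The call with SAHA ended without SAHA replicate 2 (adjusted p = 0.0575) and without vehicle replicate 2 (adjusted p = 0.0667).

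Among head-to-head pairs with both genes called, calls in the same direction outnumbered opposite ones with each compound. RefSeq's promoter table gave 866 head-to-head pairs of tested genes with at most 1000 bases between their starts. With largazole both genes of 194 pairs were called, and 69 of these (35.6%) went in opposite directions. With SAHA it was 76 of 222 (34.2%), and with FK228 93 of 277 (33.6%). The pairs called in the same direction were 125, 146 and 184. Of all 866 pairs 7.97%, 8.78% and 10.7% were called in opposite directions. TAP1 and PSMB9 belonged to the opposite pairs with each compound.

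The other 2 inducible subunits did not follow PSMB9. PSMB8, which replaces PSMB5, was near the low end of the array. Its single probe set 209040_s_at read 3.93 and 4.16 with vehicle, 3.83 and 4.17 with largazole, 3.92 and 3.76 with SAHA, and 4.51 and 4.54 with FK228. Only the FK228 arrays reached the filter value of 4.49, so the gene was tested through them alone and its call lends no support to a difference. The change was -0.04 ± 0.135 with largazole (adjusted p = 0.854), -0.20 ± 0.135 with SAHA (adjusted p = 0.273) and 0.48 ± 0.135 with FK228 (1.40-fold, adjusted p = 0.0185, limma). The FK228 call ended without FK228 replicate 1 (adjusted p = 0.0569), FK228 replicate 2 (0.0672) or vehicle replicate 1 (0.115).

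PSMB10 replaces PSMB7, and its single probe set 202659_at read 8.75 and 8.99 with vehicle, 8.49 and 8.51 with largazole, 8.30 and 8.52 with SAHA, and 8.65 and 8.91 with FK228. The largazole and SAHA arrays were below both vehicle arrays, and the FK228 arrays overlapped them. PSMB10 fell by 0.46 with SAHA (SE 0.13, 1.38-fold, adjusted p = 0.0216, limma), a call that ended without SAHA replicate 1 (0.118) or vehicle replicate 2 (0.130). The value with largazole was -0.37 ± 0.13 (adjusted p = 0.052), and with the replicate number as a block it was called (adjusted p = 0.0127). With FK228 it was -0.09 ± 0.13 (adjusted p = 0.612).

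Of the 3 constitutive partners, PSMB5, the chymotrypsin-like subunit, fell with all compounds, at -0.70 with largazole (adjusted p = 0.000883), -0.84 with SAHA (adjusted p = 0.000313) and -0.65 with FK228 (adjusted p = 0.000881, limma), from a vehicle mean of 11.72. PSMB6, the caspase-like subunit that PSMB9 replaces, changed by -0.26, -0.25 and -0.25 (adjusted p = 0.084, 0.0838 and 0.0836). With the replicate block PSMB6 was called in all 3 comparisons (adjusted p = 0.0209, 0.0208 and 0.0206), which raised the calls in this list from 1 to 2 with each compound. Calls over all 13381 genes rose under the block too, from 6044, 6339 and 7060 to 6727, 7011 and 7688. PSMB7, the trypsin-like subunit, changed by -0.08, -0.10 and 0.01 and was not called.

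TAP2 and tapasin work beside TAP1 at the peptide-loading complex. Their upstream stretches are shown because both hold the interferon element close to the start: TAP2 at chr6:32838740-32838989 and TAPBP at chr6:33314079-33314328, both on the minus strand of GRCh38.p14, with capitals as above.
TAP2: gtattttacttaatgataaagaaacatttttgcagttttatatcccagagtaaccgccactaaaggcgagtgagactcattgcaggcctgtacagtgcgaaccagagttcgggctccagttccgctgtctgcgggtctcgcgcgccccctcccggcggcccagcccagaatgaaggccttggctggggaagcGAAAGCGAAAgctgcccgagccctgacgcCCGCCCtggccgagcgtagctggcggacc
TAPBP: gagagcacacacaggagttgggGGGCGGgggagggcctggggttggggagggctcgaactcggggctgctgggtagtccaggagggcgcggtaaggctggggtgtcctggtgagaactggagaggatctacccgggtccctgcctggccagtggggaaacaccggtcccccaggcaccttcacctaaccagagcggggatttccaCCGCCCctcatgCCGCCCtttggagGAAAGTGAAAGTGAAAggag

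The TAP2 match covered bases -58 to -49, and the 2 overlapping TAPBP matches covered -20 to -11 and -14 to -5. RefSeq's table had a window for 8 of the 10 genes, 11 windows in all. NLRC5 and HLA-E had no entry. The interferon element was matched in 7 of the 8 genes: PSMB8, PSMB10, TAP1, TAP2, TAPBP, B2M and ERAP1. PSMB9, the gene with the widest rise, had no match in its window. TAP1, TAP2 and TAPBP, which fell, were matched, but so were genes that did not fall with them. B2M lay above both vehicle arrays on every treated array by its reported probe set, though it was not called. Its second bright probe set, 201891_s_at, overlapped the vehicle arrays with FK228 (-0.06). No direction is given for ERAP1. PSMB10 was called lower with SAHA, and PSMB8 higher with FK228, a call that lends no support to a difference. Whether a match goes with the direction of change was not tested. The NF-kB letters were matched in TAP1 and B2M, the GC box in 5 genes, the CCAAT box (CCAAT, in 34.6% of all windows) in 4 and the CRE half-site (TGACG, in 24.6%) in 4. The gamma-activated site (TTCNNNGAA, in 7.66% of all windows) was matched in PSMB8 and TAP1.

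**Figure D3:**
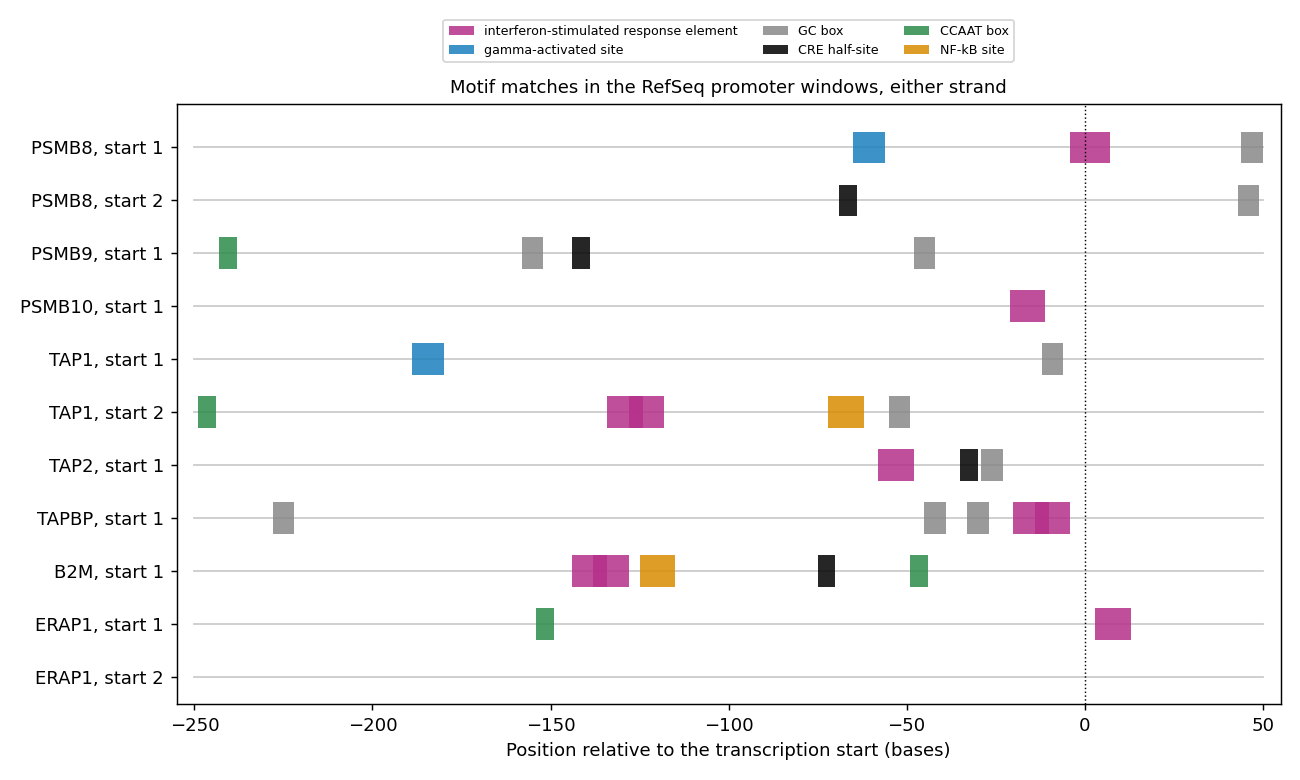
Positions of motif matches on either strand in the 11 RefSeq promoter windows of 8 of the genes; the horizontal axis is the distance from the transcription start in bases, and each coloured box is 1 match. A match to the interferon-stimulated response element appears in 7 of the 8 genes and in no PSMB9 window.

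TAP2, the second chain of the transporter, was read by 2 tested probe sets. Its reported probe set 204769_s_at read 8.01 and 8.11 with vehicle, 7.49 and 7.58 with largazole, 7.77 and 7.90 with SAHA, and 7.60 and 7.77 with FK228. All treated arrays were below both vehicle arrays, with the largazole arrays lowest. TAP2 fell, changing by -0.53 with largazole (SE 0.0985, 1.44-fold, adjusted p = 0.0037) and by -0.38 with FK228 (SE 0.0985, 1.30-fold, adjusted p = 0.0143, limma). The FK228 call ended without FK228 replicate 1 (0.0846) or vehicle replicate 2 (0.0799). With SAHA the value was -0.22 ± 0.0985 (adjusted p = 0.104), and with the replicate block it was called (adjusted p = 0.0324).

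The second TAP2 probe set, 225973_at, read 7.81 and 7.75 with vehicle, 7.13 and 7.17 with largazole, 7.06 and 7.13 with SAHA, and 7.05 and 6.91 with FK228. It was lower on every treated array and fell with all 3 compounds, at -0.63 (adjusted p = 0.000882), -0.68 (adjusted p = 0.000525) and -0.79 (adjusted p = 0.000174, limma). The call with SAHA therefore depended on the probe set. TAP2 had 2 further probe sets that did not pass the filter.

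TAPBP encodes tapasin, the chaperone that holds class I molecules at the transporter and selects peptides. Its reported probe set 208829_at read 8.56 and 8.59 with vehicle, 7.77 and 7.81 with largazole, 7.51 and 7.63 with SAHA, and 7.58 and 7.80 with FK228. The gap between the vehicle and the treated arrays was wider than the range within any group. TAPBP fell, changing by -0.79 with largazole (SE 0.0982, 1.73-fold, adjusted p = 0.000533), by -1.01 with SAHA (2.01-fold, adjusted p = 0.000146) and by -0.88 with FK228 (1.85-fold, adjusted p = 0.000192, limma). These calls held under every alternative tried.

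The other tested TAPBP probe set, 1555565_s_at, lay close to the filter value, at 4.90 and 4.92 with vehicle and between 4.73 and 4.95 on the treated arrays. It changed by -0.06, -0.13 and -0.07 (adjusted p = 0.67, 0.311 and 0.591), so the fall rested on the brighter probe set. With the mean of both probe sets TAPBP changed by -0.42 with largazole, -0.57 with SAHA and -0.48 with FK228, over 1.5 times less than the reported probe set and still called. The remaining one, 210294_at, did not pass the filter, and it read 4.84 and 4.49 with vehicle and between 4.05 and 4.33 on the treated arrays.

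ERAP1, the aminopeptidase that trims peptides to the length that class I molecules hold, was read differently by its 2 tested probe sets. The reported one, 209701_at, read 5.77 and 6.05 with vehicle, 6.13 and 5.69 with largazole, 6.42 and 5.98 with SAHA, and 6.13 and 5.99 with FK228. All groups overlapped. Its changes were 0.00058 ± 0.193 with largazole (adjusted p = 0.999), 0.29 ± 0.193 with SAHA (adjusted p = 0.271) and 0.15 ± 0.193 with FK228 (adjusted p = 0.556, limma).

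The other ERAP1 probe set, 209788_s_at, read 6.15 and 5.99 with vehicle, 5.20 and 5.23 with largazole, 5.51 and 5.06 with SAHA, and 4.98 and 4.99 with FK228. Every treated array was below both vehicle arrays. It fell, changing by -0.85 with largazole (1.81-fold lower, adjusted p = 0.00221), by -0.78 with SAHA (1.72-fold, adjusted p = 0.00301) and by -1.09 with FK228 (2.12-fold, adjusted p = 0.000459, limma), and these calls held with each array left out in turn. With the mean of both probe sets ERAP1 turned to -0.43 with largazole (adjusted p = 0.0375) and -0.47 with FK228 (adjusted p = 0.0226). Which transcripts each probe set reads was not tested, and no direction is given for the gene. Its 3 remaining probe sets did not pass the filter.

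**Figure D4:**
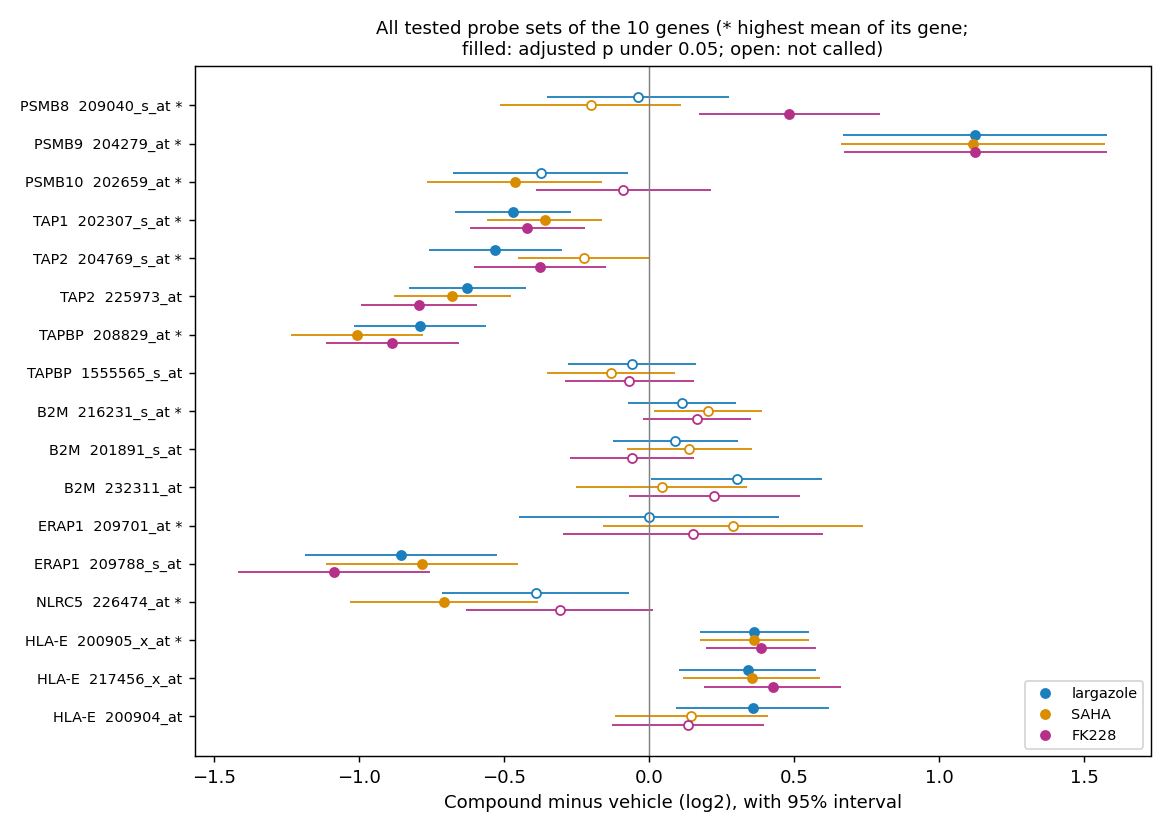
Log2 change against vehicle with its 95% confidence interval for all 17 tested probe sets of the 10 genes, by compound; an asterisk marks the brightest probe set of each gene, filled points have an adjusted p under 0.05 and open points do not. The 2 probe sets of ERAP1 part, with 209788_s_at between -1.09 and -0.78 and 209701_at between 0.00058 and 0.29, with intervals that span 0.

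B2M, the light chain, was near the top of the range of the array. Its reported probe set 216231_s_at read 12.53 and 12.63 with vehicle, 12.67 and 12.72 with largazole, 12.78 and 12.79 with SAHA, and 12.77 and 12.73 with FK228. All treated arrays were above both vehicle arrays, but by little. The changes were 0.11 ± 0.0805 with largazole (adjusted p = 0.312), 0.20 ± 0.0805 with SAHA (adjusted p = 0.0772) and 0.16 ± 0.0805 with FK228 (adjusted p = 0.129, limma), none of them called. The second bright probe set, 201891_s_at, changed by 0.09, 0.14 and -0.06 and was not called either. The dimmest one, 232311_at, changed by 0.30 (adjusted p = 0.0973), 0.04 and 0.22. With the replicate block its largazole value was called (adjusted p = 0.0459).

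HLA-E, the heavy chain whose ligand is the leader peptide of other class I chains, rose on its reported probe set. This probe set, 200905_x_at, read 10.64 and 10.72 with vehicle, 11.03 and 11.05 with largazole, 11.00 and 11.08 with SAHA, and 11.09 and 11.03 with FK228. The treated arrays stood above both vehicle arrays and overlapped each other. The rise was 0.36 ± 0.0815 with largazole (1.29-fold, adjusted p = 0.00889), 0.36 ± 0.0815 with SAHA (1.29-fold, adjusted p = 0.00823) and 0.38 ± 0.0815 with FK228 (1.31-fold, adjusted p = 0.0053, limma). The largazole call ended without largazole replicate 2 (0.0571) or vehicle replicate 1 (0.0554), and the SAHA call without vehicle replicate 1 (0.0518).

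The ending _x_at marks probe sets whose probes may also bind other transcripts, and class I heavy chains are alike in sequence, so the share of HLA-E in this signal is uncertain. The second such probe set, 217456_x_at, rose by 0.34 (adjusted p = 0.0302), 0.35 (0.0239) and 0.43 (0.00947). With 1 array left out its adjusted p reached 0.152 with largazole, 0.123 with SAHA and 0.0619 with FK228. The calls ended without any 1 of the largazole or vehicle arrays, without SAHA replicate 2 or vehicle replicate 1, and without FK228 replicate 2 or vehicle replicate 1, in that order of compounds. The probe set without that ending, 200904_at, read 7.86 and 7.86 with vehicle, 8.22 and 8.22 with largazole, 7.97 and 8.05 with SAHA, and 7.83 and 8.16 with FK228. It rose with largazole, by 0.36 ± 0.113 (adjusted p = 0.0379), and that call ended when any 1 of the largazole, SAHA or vehicle arrays was left out (adjusted p up to 0.128). With SAHA it changed by 0.15 (adjusted p = 0.346) and with FK228 by 0.13 (adjusted p = 0.368), and a difference between the compounds on this probe set was not tested against SAHA.

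NLRC5, the transactivator that assembles on class I promoters, has 1 probe set, 226474_at, not far above the filter value. It read 5.19 and 5.03 with vehicle, 4.62 and 4.82 with largazole, 4.23 and 4.57 with SAHA, and 4.90 and 4.71 with FK228. All treated arrays were below both vehicle arrays, with SAHA lowest. It fell by 0.71 with SAHA (SE 0.139, 1.63-fold, adjusted p = 0.0044, limma), to a mean of 4.40. That mean lies under the filter value, near the low end of the array, which limits what the size of the fall can mean. The value was -0.39 ± 0.139 with largazole (adjusted p = 0.0568) and -0.31 ± 0.139 with FK228 (adjusted p = 0.105). Its 3 changes had the sign of those of TAP1, TAP2 and TAPBP, and the opposite sign to those of PSMB9 and HLA-E.

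Largazole and FK228 were given at the same dose and time and were the 1 pair of compounds tested against each other, with p-values adjusted over all tested probe sets. Of the 10 genes 0 were called in limma and 1, PSMB8, had an unadjusted p under 0.05, while 9.07% of all genes were called. That background rests on every array: the number of genes called was 1214, and it was 99 without largazole replicate 1, 173 without largazole replicate 2, 332 without FK228 replicate 1, 359 without FK228 replicate 2 and 1864 with the replicate block. PSMB8 was higher with FK228 by 0.52 ± 0.135 (95% interval 0.21 to 0.83, adjusted p = 0.0561, limma), and with the replicate block it was called (adjusted p = 0.0496). Both largazole arrays of PSMB8 lay under the filter value, and the gene was tested through its FK228 arrays alone. Neither this value nor the call under the block therefore lends support to a difference between the compounds.

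For the other subunits the FK228 minus largazole difference was 0.0016 for PSMB9 (95% interval -0.45 to 0.46) and 0.29 for PSMB10 (-0.02 to 0.59). For the transporter and loading genes it was 0.05 for TAP1 (-0.15 to 0.25), 0.15 for TAP2 (-0.08 to 0.38) and -0.10 for TAPBP (-0.32 to 0.13). It was 0.15 for ERAP1 (-0.30 to 0.60), 0.05 for B2M (-0.13 to 0.24), 0.08 for NLRC5 (-0.24 to 0.41) and 0.02 for HLA-E (-0.17 to 0.21). None of these differences was called with or without the block, and the intervals show how large a difference could have gone uncalled. The compounds differ in their ring system as well as in how the thiol is masked. SAHA was given at another dose and was not tested against the depsipeptides.

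The rest of the pathway was counted in lists of genes, with log2 changes and counts given in the order largazole, SAHA and FK228. Of all genes 21.9%, 22.1% and 25.7% were called higher and 23.2%, 25.2% and 27.1% lower, and each list's counts stand beside these shares. Over the other 3 proteasome lists the medians lay between -0.22 and -0.041 with the 3 compounds. Of 10 tested core subunits 2 fell with largazole, 2 with SAHA and 3 with FK228, near the shares over all genes (23.2%, 25.2% and 27.1%). PSMA1 led them, at -0.45, -0.45 and -0.36, ahead of PSMB2 at -0.27, -0.38 and -0.25. PSMA5 rose by 0.29 with FK228. The PSMB2 calls with largazole and FK228 and the PSMA5 call ended with 1 array left out, with adjusted p up to 0.158, 0.174 and 0.110. For PSMB2 this held without any 1 of the vehicle arrays or of its own compound's arrays, and with FK228 also without either largazole array. For PSMA5 it held without either FK228 array or without vehicle replicate 1.

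Of 14 tested subunits of the regulatory particle, which unfolds substrates, 5 fell with largazole, 4 with SAHA and 5 with FK228, beside 23.2%, 25.2% and 27.1% of all genes. With the replicate block 9 rather than 4 were called with SAHA, 8 lower and 1 higher. The block also raised the SAHA calls over all 13381 genes from 6339 to 7011. PSMD11 (-0.75, -0.64 and -0.70), PSMC1 (-0.36, -0.41 and -0.34) and PSMC6 (-0.46, -0.33 and -0.55) fell with all 3 compounds, and PSMC3 fell with largazole (-0.47), while PSMD6 rose by 0.33 with FK228. PSMC3 was not called with SAHA (-0.36) or FK228 (-0.17). Its largazole call ended without either largazole array or vehicle replicate 2 (adjusted p up to 0.147), and the PSMD6 call without FK228 replicate 1 or vehicle replicate 1 (up to 0.0597). Of 8 activators and assembly chaperones 3, 2 and 2 fell, again beside 23.2%, 25.2% and 27.1% of all genes. Under the block 4 fell with FK228, where calls over all 13381 genes rose from 7060 to 7688. PSMG4 fell (-0.90, -0.91 and -1.14) on its reported probe set. Its probe set 233443_at was not called (-0.04, -0.19 and -0.21), and 242055_at went the other way (0.23, 0.60 and 0.33), called higher with SAHA (adjusted p = 0.00934, limma), so no direction is given for the gene. PSMG3 fell (-0.55, -0.48 and -0.47), and its SAHA and FK228 calls ended without vehicle replicate 2 (adjusted p = 0.0538 and 0.0516).

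Of 8 tested chaperones and trimming enzymes of the endoplasmic reticulum and cytosol, 2 rose with largazole, 3 with SAHA and 3 with FK228, beside 21.9%, 22.1% and 25.7% of all genes. HSPA5, the chaperone BiP, rose by 0.61, 0.54 and 0.76, and CALR, calreticulin, by 0.44, 0.52 and 0.52. The CALR call with largazole ended without largazole replicate 2 (0.0768) or vehicle replicate 1 (0.0559). THOP1, a cytosolic peptidase that destroys peptides, fell with largazole (-0.31) and SAHA (-0.28). Both calls ended without any 1 of the largazole or vehicle arrays, and the SAHA call also without SAHA replicate 1 (adjusted p up to 0.133 and 0.162).

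Among 10 other class I heavy chains and stress ligands, 4 rose and 2 fell with largazole, 4 and 2 with SAHA, and 5 and 2 with FK228, with list medians of 0.29, 0.34 and 0.40. Over all genes 21.9%, 22.1% and 25.7% rose and 23.2%, 25.2% and 27.1% fell. MICA, a stress ligand of the NK receptor NKG2D that binds no peptide, rose by 1.42, 1.49 and 1.66. ULBP2, another NKG2D ligand, rose by 1.38, 1.34 and 1.73. HFE, the class I-like regulator of iron uptake, fell (-1.41, -1.58 and -1.43), and MR1, which presents vitamin B metabolites, also fell (-0.61, -0.67 and -1.13). MR1 was also lower with FK228 than with largazole (-0.52, adjusted p = 0.0183, limma), a call that ended without either largazole or either FK228 array (adjusted p between 0.061 and 0.138). The difference was -0.031 on its probe sets without the endings _x_at and _s_at. On the reported MR1 probe set the FK228 mean of 4.38 lies under the filter value (vehicle mean 5.51, largazole mean 4.90). This limits what the size of its FK228 fall and of that difference can mean. As background, none of these 4 molecules carries peptides from the transporter, as HLA-E and the classical chains do.

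In the class II pathway, which presents peptides from endosomes and needs neither TAP nor tapasin, 8 of 13 genes on the array were tested. CIITA, CD74, HLA-DQA1, HLA-DOB and CTSS did not pass the filter and are not in the counts. The tested genes had list medians of 0.73, 0.46 and 0.60. Of these 8, 6 rose with largazole, 4 with SAHA and 6 with FK228, beside 21.9%, 22.1% and 25.7% of all genes called higher. HLA-DPA1 is among those called with each compound, but its vehicle mean of 4.27 is under the filter value and it was tested through its treated arrays, so its calls lend no support to a difference. HLA-DRA, the alpha chain of HLA-DR, rose by 1.23, 1.02 and 1.08 from a vehicle mean of 4.93. HLA-DMB, which loads peptides on class II, rose by 1.09, 0.90 and 1.01 from 5.95.

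Of 13 transcription factors that act on class I promoters, 5 fell with largazole, 7 with SAHA and 8 with FK228, and 2, 1 and 2 rose, beside 23.2%, 25.2% and 27.1% of all genes lower and 21.9%, 22.1% and 25.7% higher. NFKB1 fell (-2.07, -2.36 and -2.63) from a vehicle mean of 8.40. IRF2, which binds the interferon element, fell (-1.77, -1.16 and -2.12) from 5.53 to treated means of 3.76, 4.36 and 3.41. Those treated means lie under the filter value, so IRF2 was tested through its vehicle arrays and its calls lend no support to a difference. NFYA, a subunit of the factor that binds the CCAAT box, rose by 0.53, 0.63 and 0.86. NFYB was higher by 0.29 with largazole on its reported probe set and by -0.10, not called, without probe sets ending in _x_at or _s_at. Its call also ended without any 1 of the largazole, FK228 or vehicle arrays (adjusted p up to 0.220). RELA rose by 0.28 with FK228, a call that ended without any 1 of the FK228 or vehicle arrays (up to 0.0835). RFXAP, of the RFX complex that NLRC5 works with, was lower with FK228 than with largazole (-0.65, adjusted p = 0.0478, limma). That call ended without any 1 of the largazole, FK228 or SAHA arrays (up to 0.235).

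The receptor for interferon gamma split. IFNGR1, its ligand-binding chain, rose by 0.93, 1.05 and 0.99, and IFNGR2, its signalling chain, fell (-1.29, -1.42 and -1.59). Of 9 tested receptor and signalling genes 5 rose and 1 fell with largazole, 3 and 2 with SAHA, and 3 and 1 with FK228, beside 21.9%, 22.1% and 25.7% of all genes higher and 23.2%, 25.2% and 27.1% lower. SOCS1, an inhibitor of the receptor's kinases, rose by 0.99 with largazole, a call that ended without either vehicle array or without largazole replicate 2, where the change was 0.53 (adjusted p up to 0.154). Its values of 0.60 with SAHA and 0.55 with FK228 were not called (adjusted p = 0.145 and 0.170), and with the replicate block they were (0.0206 and 0.0263). PIAS1, an inhibitor of STAT factors, rose by 0.67, 0.65 and 0.73. PTPN2, a phosphatase of the pathway, fell by 0.35 with SAHA, a call that ended without SAHA replicate 2 (0.0649) or vehicle replicate 2 (0.0675).

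**Figure D5:**
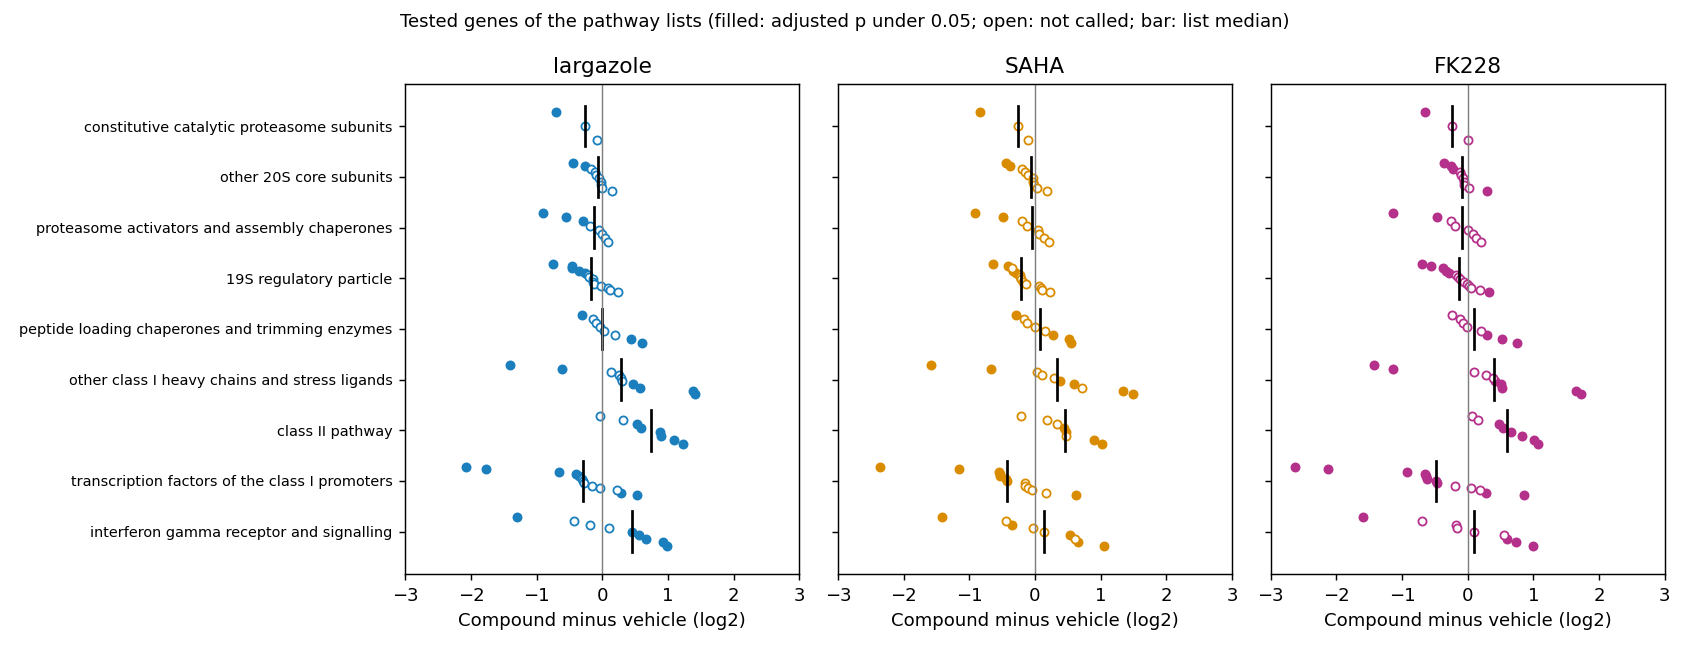
Log2 change against vehicle of every tested gene of the 9 pathway lists, 1 panel per compound; filled points have an adjusted p under 0.05 in limma, open points do not, and each bar is the median of its list. The class II list has its median at 0.73, 0.46 and 0.60, and the list of class I transcription factors at -0.29, -0.43 and -0.48.

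For the 3 members with the widest range of group means, the genes with the nearest pattern over the 8 arrays were sought among 13371 other tested genes, by Euclidean distance of values relative to the vehicle mean. PSMB9 (range 1.12) was nearest to HYKK, a hydroxylysine kinase (distance 0.328), PLXNA3, a semaphorin receptor (0.336), and SLC25A4, the mitochondrial ADP/ATP carrier (0.346). TAPBP (range 1.01) was nearest to CCDC137 (0.158), MED16, a Mediator subunit (0.160), and TMX2 (0.162). NLRC5 (range 0.71) was nearest to GALNT6, a glycosyltransferase that starts O-glycans (0.225), CPNE7 (0.252) and FHIP2B (0.268). None of these 9 genes is on a list of the pathway.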

How the data were processed

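HCT116 RNA was measured on 8 Affymetrix arrays, 2 per group. The authors deposited 1 log2 level for each probe set and array, with array medians between 4.47 and 4.51. The tools named, per the submitters' processing notes, are affy, RMA and limma. Version, role and order, and with them the authors' normalization steps, are not given in the sources used here. Of the probe sets, 41091 had 1 gene symbol, 1801 several and 11721 none, and only the first were named.

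Probe sets whose second-highest value reached the median of all values (4.49) were tested, 28985 in all. One limma model (version 3.58.1, under R 4.3.3) held all arrays, with 1 coefficient per group (4 residual and 3.69 prior degrees of freedom), with Benjamini-Hochberg adjustment over the tested probe sets. With 2 arrays a side the smallest two-sided p of an exact permutation test is 0.333, so none was run. Python 3.11.15 with pandas 2.3.3 made the tables, and matplotlib 3.10.9 the figures. Precision is limited by the 2 arrays per group. The script was tested on simulated data.

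The members, lists and rules were chosen with earlier results of these data known. All members are named, and of each list up to 2 called genes highest and 2 lowest per comparison, a list of 3 whole. The sample titles number the replicates. Deviations of same-numbered arrays from their group means correlated at 0.13 to 0.27 in all 6 pairs of groups, so the numbers were taken to pair the arrays, and a fit with the replicate block was an alternative. The others were no filter, a stricter filter (6.87), an intensity trend, array weights, 2 other scalings, other choices of probe set, only the 4 arrays compared, and each array left out. Promoter windows are RefSeq's, searched on both strands.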

Additional observations from a re-analysis of the deposited data

How the results depend on the processing

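Over the 10 genes and 4 comparisons, 635 of 700 alternative values kept their direction and their side of the threshold, 25 gained a call, 14 lost one and 26 changed sign. With the mean of all tested probe sets of a gene, which brings in its falling probe set, ERAP1 turned to -0.43 with largazole and -0.47 with FK228, both called, and to -0.25 with SAHA, not called. The remaining changes of sign were of values called in neither fit. ERAP1 with largazole was -0.010 with equal ribosomal protein medians. With 1 array left out, changes ran from -0.22 to 0.22 for ERAP1 and -0.21 to 0.13 for PSMB8 with largazole, and from -0.22 to 0.042 for PSMB10 with FK228. Another 16 were FK228 against largazole. There PSMB9 was -0.026 under a further quantile normalization, and without probe sets ending in _x_at or _s_at TAP2 was -0.17, B2M -0.077 and HLA-E -0.22. With the probe set mean TAP2 was -0.0070, B2M -0.058, ERAP1 -0.041 and HLA-E -0.038. With 1 array left out that difference ran from -0.21 to 0.21 for PSMB9, -0.0020 to 0.10 for TAP1, -0.20 to 0.011 for TAPBP, -0.069 to 0.37 for ERAP1, -0.013 to 0.18 for NLRC5 and -0.010 to 0.054 for HLA-E. The count of members called with largazole was 8 with that mean, where 6478 of all 13381 genes were called. With FK228 the count was 3 of the 8 genes tested without probe sets ending in _x_at or _s_at, which leaves out TAP1 and PSMB8. Of all genes 5330 of 10420 were called in that fit. For FK228 against largazole 1 member rather than 0 was called with that mean, with equal ribosomal protein medians and with the replicate block. Each time it was PSMB8, tested through its FK228 arrays alone, so these calls lend no support to a difference. Over all 13381 genes the same fits called 1586, 1162 and 1864. With each array left out in turn, 4 to 6 members were called with largazole, 4 to 6 with SAHA, 4 to 6 with FK228 and 0 to 0 between the last and largazole. With the replicate block the counts were 6 with largazole, 7 with SAHA, 6 with FK228 and 1 between FK228 and largazole. Calls rose over the whole array as well, to 6727, 7011, 7688 and 1864 of 13381 genes from 6044, 6339, 7060 and 1214. Beyond PSMB10, TAP2, B2M and PSMB8 as given above, the block changed no call of a member's probe sets, and it ended no call on the pathway lists and added 24, among them PSMC3 and PSMD6 with SAHA, RELA with largazole and THOP1 with FK228. Without probe sets ending in _x_at or _s_at, HLA-E was no longer called with SAHA (adjusted p = 0.362, limma) or FK228 (0.384), and TAP2 was called with SAHA at -0.68 (0.000597).

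Calls near the threshold moved both ways. PSMB10 with largazole was called in 10 alternatives (adjusted p between 0.0127 and 0.0464, limma) and NLRC5 with largazole in 6 (0.0327 to 0.0456). B2M was called with SAHA under the stricter filter (0.0277) and the intensity trend (0.00372), and with FK228 under the trend (0.0116). Alternatives for the pathway genes were added after seeing the data, and 1333 of 1436 values kept direction and side, 9 gained a call, 88 lost one and 6 changed sign. NFYB with largazole turned to -0.10 without probe sets ending in _x_at or _s_at. The others, called in neither fit, came with 1 array left out, where PSMB7 with FK228 ran from -0.057 to 0.071 and, for FK228 against largazole, PSMB5 from -0.027 to 0.12 and PSMB6 from -0.055 to 0.076. PSMB8, NLRC5 and some probe sets of TAPBP, B2M and ERAP1 lay close to the filter value. The scaling alternatives moved the median of all genes by at most 0.027.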
